A study of Caenorhabditis elegans with 2 samples.

Results

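The regions described here lie at non-coding RNA genes of Caenorhabditis elegans that are not tRNA, snoRNA, snRNA or miRNA genes. NHR-28, a nuclear hormone receptor, was profiled through an eGFP tag by ChIP-seq (sequencing of DNA that was immunoprecipitated with the receptor), and the question was which of these RNA genes carry ChIP-seq signal of the tagged receptor in embryos. A region of the authors' pooled list was taken when its summit, the position of highest signal, lay in an exon of a gene annotated as ncRNA, lincRNA (long intervening non-coding RNA) or antisense_RNA, and when no tRNA, snoRNA, snRNA or miRNA gene lay within 500 bp. This gave 535 of 30000 regions (1.78%). A further 126 summits lay in the same kinds of exon but had such a small RNA gene within 500 bp, and were left out. The choice used position alone and no measured signal beyond a place in the pooled list.

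The study holds 2 libraries, labelled biological replicates 1 and 2, which form 1 group with no other genotype, stage or treatment beside it. Both are from whole worms of strain OP317, which carries unc-119(ed3) and the integrated transgene wgIs317, the insertion that targets nhr-28 and whose product is labelled eGFP-nhr-28. The worms were mixed-stage embryos of pooled sexes, and DNA fragments were sized to 150 to 350 bp. The signal is that of a tagged transgene product in whole embryos, so no cell type is resolved, and no untagged strain was analysed here. The authors deposited 4 lists used here on genome build ce11: the pooled list of both replicates, made with a relaxed setting, lists of 14746 and 4556 regions for replicates 1 and 2, and 238 regions kept at an irreproducible discovery rate (IDR) cutoff, a step which keeps regions that rank alike in both replicates. Signal is the authors' value of a region against the control library and has a scale of its own in each list. Read totals were not given in the sources used here, so the depth behind each value is unknown.

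NHR-28 belongs to the nuclear hormone receptors, transcription factors with a zinc-finger DNA-binding domain and a ligand-binding domain, a family that has expanded greatly in nematodes. Non-coding RNA genes include structural RNAs with a fixed task, such as the RNA subunits of RNase P and RNase MRP and the scaffold RNA of the signal recognition particle, and long RNAs, some of which act in developmental timing or ageing. Most genes annotated as ncRNA in C. elegans are short transcripts known only by a sequence name, to which no function is assigned here. Because many lie close to protein-coding genes, a ChIP-seq summit inside one can also lie just upstream of a neighbour.

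The DNA at the strongest of these regions is printed first, since their summits carry the values below. These are the 101 bp centred on the summits of 8 of the 12 regions that passed IDR, on the plus strand of ce11 (WBcel235), with the gene's name first. Capitals mark GAGAGA or its reverse complement TCTCTC, a nuclear receptor half-site, AGGTCA or TGACCT, and the B box of RNA polymerase III genes, GTTCNANNC, on either strand.
F52D10.7: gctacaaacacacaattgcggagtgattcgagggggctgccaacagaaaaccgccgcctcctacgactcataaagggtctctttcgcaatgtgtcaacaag
C14F11.14: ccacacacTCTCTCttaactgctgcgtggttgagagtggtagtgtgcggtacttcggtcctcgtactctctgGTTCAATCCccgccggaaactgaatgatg
K10H10.14: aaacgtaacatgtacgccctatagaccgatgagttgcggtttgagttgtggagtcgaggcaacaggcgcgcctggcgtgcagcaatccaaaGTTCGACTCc
F08G2.13: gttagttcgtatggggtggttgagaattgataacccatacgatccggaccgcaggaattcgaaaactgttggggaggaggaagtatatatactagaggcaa
F56F3.10: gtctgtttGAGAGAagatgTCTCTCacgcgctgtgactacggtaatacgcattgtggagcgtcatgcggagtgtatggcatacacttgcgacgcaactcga
DL2.2: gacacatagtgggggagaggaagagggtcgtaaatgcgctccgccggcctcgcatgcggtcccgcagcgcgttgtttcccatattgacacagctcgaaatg
linc-128: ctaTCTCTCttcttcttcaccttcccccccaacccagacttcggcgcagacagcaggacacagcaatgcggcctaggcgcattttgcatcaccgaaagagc
F22E12.10: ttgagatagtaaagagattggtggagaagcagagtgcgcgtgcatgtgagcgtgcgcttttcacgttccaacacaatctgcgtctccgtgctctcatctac
The printed stretches are chrX:11605883-11605983, chrX:6207828-6207928, chrII:14496970-14497070, chrII:13834464-13834564, chrIII:4475598-4475698, chrX:4712031-4712131, chrV:1151361-1151461 and chrV:10466667-10466767, in the order of the genes. Of the 8 stretches, those at C14F11.14, F56F3.10 and linc-128 hold GAGAGA or its complement, and those at C14F11.14 and K10H10.14 hold the B box.

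Regions at these RNA genes were more often strong and found in both replicates than the regions of the pooled list as a whole. Of the 535 regions, 12 (2.24%) were in the IDR list, against 238 of all 30000 pooled regions (0.793%). The Wilson 95% interval was 1.29 to 3.88% for the RNA genes and 0.699 to 0.900% for all pooled regions; these intervals cover counting error only, and neighbouring regions are not independent. The summit lay in a region of both replicates for 70 of the 535 (13.1%, interval 10.5 to 16.2%), against 1423 of the 30000 (4.74%, interval 4.51 to 4.99%). Replicate 1 had a region over 261 of the 535 summits (48.8%), against 35.3% of all pooled summits. Replicate 2 had one over 115 of the 535 (21.5%), against 13.4% of all. For 229 of the 535 (42.8%), against 56.1% of all pooled regions, neither replicate list had one, so many of the 535 were weak candidates.

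The median signal was 18.1 at the RNA genes and 16.7 over all pooled regions, on the scale of the pooled list. Quartiles were 15.0 and 24.2 at the RNA genes, and 14.5 and 20.3 over all regions, so the 2 distributions overlapped widely. The highest signal at an RNA gene was 96.4, against 532 in the whole list. By rank, the RNA genes held 12 of the 238 strongest regions (5.04%), 43 of the next 762 (5.64%), 108 of the next 4000 (2.70%) and 372 of the remaining 25000 (1.49%). The first class was given the size of the IDR list, and its 12 regions are the same 12 as in that list. The exons themselves make up 1.16% of the genome, so the share of summits was 1.53 times the share of bases.

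**Figure D1:**
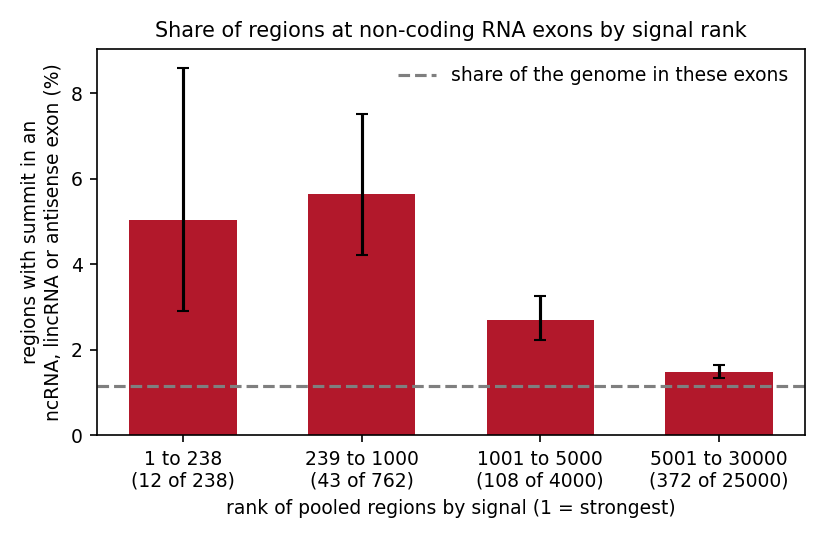
Bars give the share of pooled regions, in percent, whose summit lay in an ncRNA, lincRNA or antisense_RNA exon away from small RNA genes, by rank of signal from strongest to weakest, with Wilson 95% intervals and counts under each bar. The dashed line is the share of the genome in these exons, 1.16%. The shares among the strongest regions, 5.04% and 5.64%, stand above the 1.49% of the weakest.

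Both sides of the distance rule were set beside each other, because regions next to small RNA genes had strong signal. Just past the limit, with a small RNA gene at more than 500 and up to 1000 bp, 11 described regions had 0 in the IDR list, 4 in both replicates and a median signal of 19.03. Just short of it, at more than 200 and up to 500 bp, 11 regions that were left out had 0 in the IDR list, 2 in both replicates and a median of 21.9. The other 524 described regions lay farther away, with 2.29% in the IDR list and 12.6% in both replicates. Of the left-out summits with a small RNA gene within 200 bp, 28 of 115 (24.3%) were in the IDR list and 56 (48.7%) in both replicates.

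Most of the regions lay at short ncRNA genes. Of 7764 ncRNA genes 529 (6.81%) held 1 or more of the 535 summits, and 78 held one found in both replicates. Of 194 lincRNA genes 42 (21.6%) held one, 3 of them in both replicates, and of 100 antisense_RNA genes 17 (17.0%), 1 of them in both. Genes that held only summits left out by the distance rule stay in these totals and were counted as holding none. Gene length differs between the types, with medians of 140 bp for ncRNA, 761 bp for lincRNA and 689 bp for antisense_RNA, and longer genes have more room for a summit. Among regions, those in both replicates were 65 of 462 at ncRNA exons (14.1%) and 3 of 53 at lincRNA exons (5.66%). At antisense_RNA exons they were 2 of 22 (9.09%), which overlap each other and lie in 1 gene. The intervals of these shares overlapped. A summit can lie in exons of more than 1 type or of a gene on each strand, and 80 of the 535 lay in genes annotated on both strands, which a ChIP-seq signal cannot tell apart.

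Inside short genes the summit had no fixed place. At the 421 regions in genes of at most 400 bp, with a median length of 148 bp, the summit lay a median of 73 bp from the gene's 5' end, with quartiles of 38 and 116 bp. The 5' side of the gene's midpoint held 215 of the 421 (51.1%).

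Structural RNAs with a known task were looked at by name. For rpr-1 and mrpr-1 the public names were on the list of named genes, while the signal recognition particle genes were added after their values had been seen. The rpr-1 gene encodes the RNA of RNase P, which trims the 5' ends of tRNA precursors. Its region had a signal of 80.6 in the pooled list, 53.2 in the list of replicate 1 and 31.9 in that of replicate 2, and passed IDR. The summit lay 29 bp from the 5' end of the gene, which sits on the opposite strand in an intron of ints-8, a gene for a subunit of the Integrator complex. The gene mrpr-1 encodes the RNA of RNase MRP, a related particle that acts in the processing of ribosomal RNA precursors. Its region was far weaker, with a signal of 25.97 in the pooled list, rank 2568, and 14.0 and 15.5 in replicates 1 and 2. It did not pass IDR, and its summit lay 27 bp from the gene's 5' end. The DNA around the start of mrpr-1, chrII:7200183-7200282 on the plus strand of ce11, shows the place of the summit at the first bases of the RNA, with the annotated RNA in capitals.
mrpr-1: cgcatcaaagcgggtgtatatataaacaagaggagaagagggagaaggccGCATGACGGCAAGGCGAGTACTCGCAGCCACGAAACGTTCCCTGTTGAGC
A TATAAA begins 30 bp before the RNA, whereas the 60 bp before rpr-1 hold none on the gene's strand.

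The signal recognition particle RNA has 5 annotated genes, and 4 of them, all on chromosome III, held a region. Their first 60 bases, 5' to 3' on the strand of the gene, show how little the copies differ, with the 1 position that differs in a capital.
srpr-1.1: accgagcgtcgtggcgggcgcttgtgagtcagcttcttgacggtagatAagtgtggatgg
srpr-1.2: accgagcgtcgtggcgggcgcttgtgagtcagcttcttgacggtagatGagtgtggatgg
srpr-2.1: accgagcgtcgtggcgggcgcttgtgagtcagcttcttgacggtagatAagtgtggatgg
srpr-2.2: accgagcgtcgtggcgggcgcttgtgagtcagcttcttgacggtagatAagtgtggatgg
These are chrIII:4379147-4379206 (minus strand), chrIII:4369468-4369527 (plus), chrIII:5211220-5211279 (plus) and chrIII:5031649-5031708 (minus) of ce11. The pooled signal was 34.9 at srpr-2.2, 28.1 at srpr-1.2, 16.9 at srpr-2.1 and 14.7 at srpr-1.1. Only srpr-2.2 of the 4 was found in both replicates, with 21.2 in replicate 1 and 17.3 in replicate 2. At srpr-1.2 replicate 1 alone had a region (15.7), at srpr-1.1 replicate 2 alone (13.8), and at srpr-2.1 neither. Over their whole length the 4 genes are 94.0 to 99.0% identical, and 43.5 to 93.5% of the 32-letter words around their summits occur elsewhere in the genome. Reads from these copies cannot be told apart with certainty, so the split of signal between them is uncertain. The fifth gene, srpr-3 on chromosome V, is 81.7 to 82.7% identical to the others and had its nearest summit 2981 bp away.

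Among other RNAs with a public name, values ran from no region to the strongest of the 535. The Y RNA gene yrn-1 had its nearest summit 8641 bp away, and rncs-1, whose double-stranded RNA is known to inhibit Dicer, had one 98 bp outside the gene with a signal of 15.3. The long RNA gene tts-1, known from long-lived mutants, held regions with signals of 14.6 and 19.4, neither of which was found in both replicates. The summit nearest to tts-2, a gene added after its value was seen, lay 202 bp outside it with a signal of 35.2, and was found in both replicates with 16.5 in replicate 1 and 17.8 in replicate 2. The developmental timing RNA lep-5 held a region of 29.3 in the pooled list and 16.7 in replicate 1, with none in replicate 2. Of 170 linc genes 40 held 1 or more of the 535 regions and 3 (linc-91, linc-128 and linc-109) one found in both replicates. Of 57 genes named anr 13 held 1 or more of the 535, and 0 one found in both.

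Of the long RNAs, linc-91 and linc-128 passed IDR. The region at linc-91, on chromosome I, was the strongest of the 535, with a signal of 96.4 in the pooled list, 54.9 in replicate 1 and 38.8 in replicate 2. Its summit lay 1609 bp into the gene of 3257 bp and 2644 bp upstream of the nearest protein-coding 5' end, that of the chromatin remodeller gene chd-7. The gene held 3 more summits with signals of 17.4, 17.4 and 19.1, none of them in both replicates, so 1 of its 4 summits stood far above the others. One of the weaker summits lay 1823 bp into the gene, so near the strongest that their regions overlap and share reads. At linc-128 on chromosome V the signal was 64.8 in the pooled list, 34.8 in replicate 1 and 29.1 in replicate 2, at 505 bp from the gene's start and 4860 bp from the 5' end of the calmodulin gene cmd-1. The region at linc-109 on chromosome III was weaker, with 41.3 in the pooled list, 15.3 in replicate 1 and 23.3 in replicate 2, and did not pass IDR.

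The other 9 regions that passed IDR lay at genes known by sequence names, mostly close to protein-coding genes. F52D10.7 on chromosome X had a signal of 96.2 in the pooled list, 38.3 in replicate 1 and 57.2 in replicate 2, the highest of the 12 in the replicate 2 list. Its summit lay 514 bp upstream of ftt-2, which encodes a phosphoserine-binding adaptor protein. A second summit 205 bp away, in the gene F52D10.9, had 44.1 in the pooled list, 31.5 in replicate 1 and 14.5 in replicate 2. The 2 regions overlap, so their signals share reads.

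C14F11.14 on chromosome X had 95.3 in the pooled list, 50.6 in replicate 1 and 48.4 in replicate 2, and lay 191 bp upstream of T13C5.6. K10H10.14 on chromosome II had 85.4, 41.3 and 42.2, and lay 1006 bp upstream of dhs-8, a gene of the short-chain dehydrogenases. Both hold the printed B box, and they stood at ranks 61 and 88 of the pooled list. F08G2.13 on chromosome II had 72.6 in the pooled list, 41.4 in replicate 1 and 31.6 in replicate 2, in a gene of 75 bp that lies upstream of F08G2.5, 883 bp away.

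At the pair F56F3.10 and F56F3.11 on chromosome III, annotated on opposite strands, the signal was 69.4 in the pooled list, 36.9 in replicate 1 and 33.9 in replicate 2. This summit lay 270 bp upstream of rps-1, which encodes a protein of the small ribosomal subunit. Y65B4BR.10 on chromosome I had 68.8, 42.8 and 27.3, 233 bp upstream of the ubiquitin ligase gene wwp-1. DL2.2 on chromosome X had 66.5, 33.0 and 32.4, 198 bp upstream of glit-1. The summits of these 3 thus lay within 300 bp upstream of an annotated 5' end, a distance that does not say to which gene the signal belongs.

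The weakest that passed were F57B10.17 on chromosome I, with 57.5 in the pooled list, 30.7 in replicate 1 and 25.1 in replicate 2, and the pair F22E12.10 and F22E12.9 on chromosome V, with 57.1, 31.3 and 23.9. F57B10.17 lay 26 bp upstream of the trehalase gene tre-1, and the pair 1800 bp upstream of egl-9, which encodes the prolyl hydroxylase that controls the hypoxia factor HIF-1. Of the 12 regions 11 lay outside protein-coding genes and 8 had a protein-coding 5' end within 1000 bp, with 7 summits upstream of it. GAGAGA lay within 100 bp of the summit in 6. Of all 238 IDR regions, 149 (62.6%) lay outside protein-coding genes. A 5' end lay within 1000 bp for 139 (58.4%), with 107 summits upstream of it, and 74 (31.1%) held GAGAGA. For each of these shares the Wilson intervals of the 12 and of the 238 overlapped. The weakest of the 12 stood just above 56.4, the lowest signal of any IDR region, and the strongest outside the list had 53.6.

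**Figure D2:**
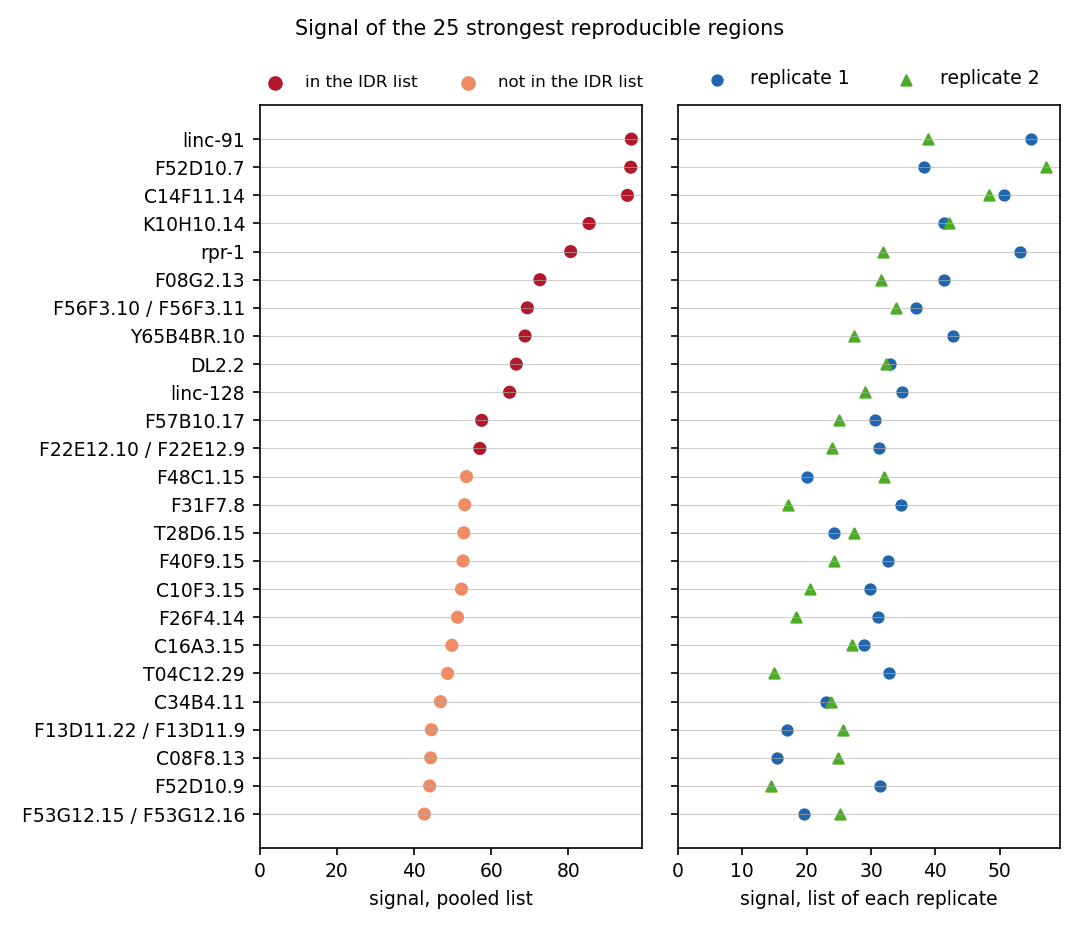
Signal of the 25 strongest regions at these RNA genes that were found in both replicates, 1 row per region with its RNA gene or genes. The left panel gives the pooled list, with the 12 regions in the IDR list in dark red and the others in orange. The right panel gives the list of replicate 1 (circles) and of replicate 2 (triangles). Pooled signal runs from 96.4 at linc-91 to 42.7 at F53G12.15, and the IDR regions have at least 30.7 in replicate 1 and 23.9 in replicate 2, levels that some of the other 13 also reach.

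Below the IDR list, the 13 strongest regions were taken from those found in both replicates. A region in the antisense RNA gene anr-20, named after its value was seen, had a signal of 43.4. It was passed over because replicate 2 had none over its summit. This summit also lay in ncRNA genes named F16A11.7 on both strands. Of the 32-letter words around it 92.9% occur elsewhere in the genome, so the place of its signal is uncertain. Of the 13, 8 lay upstream of a protein-coding 5' end within 1000 bp. That place held 54.3% of the 70 RNA gene regions found in both replicates and 44.6% of all 1423 found in both. F48C1.15, an antisense RNA gene in let-526, which encodes a component of a chromatin remodelling complex, had 53.6 in the pooled list, 20.1 in replicate 1 and 31.98 in replicate 2. It also held a second region of 32.8, again found in both replicates, with 12.1 and 19.7. The 2 regions overlap, so their signals share reads. F48C1.15 was the only antisense_RNA gene with a described region in both replicates.

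F31F7.8, 368 bp upstream of the kinase gene mrck-1, had 53.1 in the pooled list, 34.7 in replicate 1 and 17.1 in replicate 2. T28D6.15, in an intron of the alpha-tubulin gene tba-7, had 52.9, 24.3 and 27.4. F40F9.15, 215 bp upstream of a 5' end of the co-repressor gene drap-1, had 52.7, 32.6 and 24.2. The 3 were thus close together in the pooled list, while F31F7.8 was the highest of them in replicate 1 and the lowest in replicate 2.

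C10F3.15, 3156 bp upstream of the bZIP factor gene fos-1, had 52.3 in the pooled list, 29.8 in replicate 1 and 20.6 in replicate 2. F26F4.14, 603 bp upstream of tag-340, had 51.3, 31.0 and 18.4. T04C12.29, outside but nearest to the actin gene act-1, had 48.7, 32.8 and 14.9. The order of these 3 in replicate 1 was the reverse of their order in replicate 2.

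The remaining 6 ran from 49.8 at C16A3.15 to 42.7 at F53G12.15 and F53G12.16, with 46.9 at C34B4.11, 44.5 at F13D11.22 and F13D11.9, 44.3 at C08F8.13 and 44.1 at F52D10.9 between them. C16A3.15 lay 120 bp upstream of rps-13 and F53G12.15 lay 323 bp upstream of rpl-7, both ribosomal protein genes. Replicate 1 gave 29.0 and replicate 2 gave 27.1 at C16A3.15, and 19.7 and 25.2 at F53G12.15.

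Regions near ribosomal protein genes were counted as a group picked after its values were seen. A gene for a ribosomal protein, rps or rpl, was the nearest with its 5' end within 1000 bp for 7 of the 535 regions (1.31%), against 51 of 29465 other regions (0.173%). Among regions found in both replicates these were 4 of 70 (5.71%, Wilson interval 2.24 to 13.8%) at RNA genes, and 18 of 1423 (1.26%, interval 0.802 to 1.99%) in all. Beside rps-1, rps-13 and rpl-7 the fourth was rps-30, with 31.7 in the pooled list at C26F1.13 and C26F1.14. At rpl-1, rpl-17 and rpl-5 replicate 1 alone had a region, with pooled signals of 27.9, 24.7 and 21.0. All 7 summits lay 120 to 417 bp upstream of the 5' end.

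The place of a region relative to protein-coding genes went with its strength. Of the 535 summits 339 lay outside protein-coding genes, 161 in an intron and 35 over a protein-coding exon. Of those outside, 3.24% were in the IDR list and 15.9% in both replicates, against 1.14% and 6.34% of other regions outside protein-coding genes. In introns the shares were 0.621% and 8.07% at RNA genes, against 0.591% and 3.84% of other intronic regions. In 99 of the 161 intronic cases the RNA gene lay on the strand opposite to its host and in 35 on the same strand, and the other 27 were at RNA genes annotated on both strands.

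For 232 of the 535 summits (43.4%, interval 39.2 to 47.6%), against 45.2% of all pooled regions, the nearest protein-coding 5' end was at most 1000 bp away. Near a 5' end 20.3% of the RNA gene regions were in both replicates, against 5.99% of other regions near one. Away from 5' ends the shares were 7.59% at RNA genes and 3.44% elsewhere, so both places showed a higher share at RNA genes. The summits near 5' ends lay mostly upstream, in 173 of 232 cases, against 7201 of 13317 other regions near 5' ends. Of those near 5' ends, 61.6% at RNA genes and 38.0% of others lay outside protein-coding genes. In that place nearly all were upstream, 141 of 143 at RNA genes (98.6%) and 4857 of 5065 others (95.9%). From 100 to 300 bp upstream lay 71 of the 535 (13.3%), against 7.06% of other regions. Of the 70 found in both replicates 21 (30%) lay there, against 277 of all 1423 found in both (19.5%). Where the exons themselves lie relative to 5' ends was not counted. How far these positions follow from the choice by exon was therefore not tested.

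**Figure D3:**
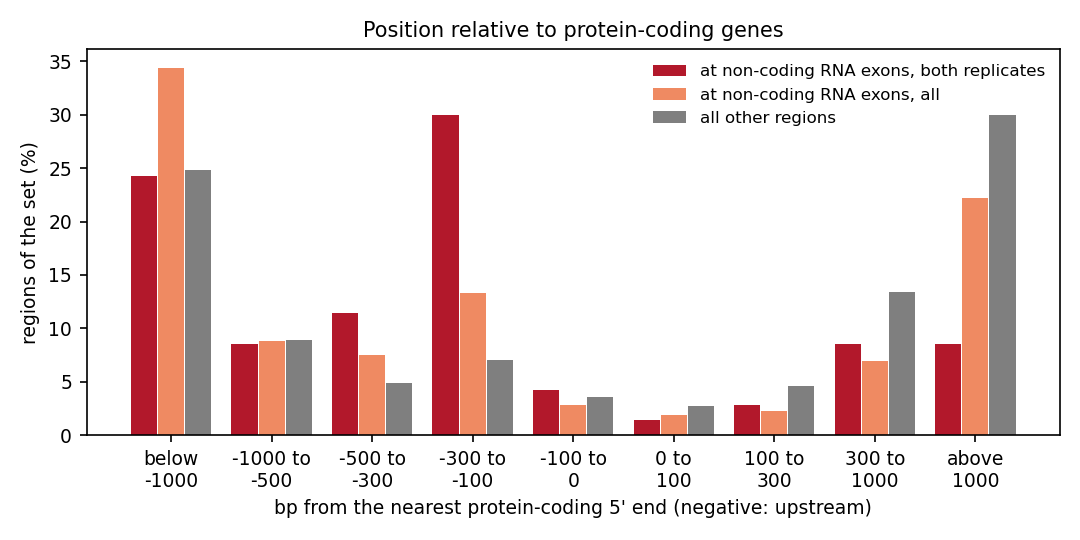
Share of summits, in percent of each set, by distance in bp from the nearest protein-coding 5' end, with upstream negative. From left to right in each bin stand the 70 RNA gene regions found in both replicates, all 535 RNA gene regions and the 29465 other regions. The bin from 300 to 100 bp upstream holds 30%, 13.3% and 7.06% of the sets.

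Base composition differed as well, and it moves with the shares above. GC content in the 100 bp to either side of the summit had a median of 41.8% at the RNA gene regions and 35.3% over all pooled regions. The exons themselves are 41.0% GC and the genome 35.4%. Within classes of GC content from 40% up the IDR shares of the groups lay closer together. The other regions keep summits next to small RNA genes, which the rule takes out of the described set. The 126 left-out summits in such exons had a median GC of 45.5%, and 22.2% of them were in the IDR list. The classes are therefore not matched for distance to small RNA genes. Of regions with 45 to 50% GC, 5 of 101 at RNA genes (4.95%, interval 2.13 to 11.1%) were in the IDR list, against 56 of 1563 others (3.58%, interval 2.77 to 4.62%). At 50% or more they were 4 of 79 (5.06%) and 34 of 608 (5.59%), and at 40 to 45% 3 of 143 (2.098%) and 70 of 4657 (1.503%). Below 40% 0 of the 212 RNA gene regions (Wilson upper limit 1.78%) were in the IDR list, against 66 of 22637 others.

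For regions found in both replicates the same classes gave 19.8% at RNA genes against 12.3% of others at 45 to 50% GC, 21.5% against 18.6% at 50% or more, and 10.5% against 6.94% at 40 to 45%. At 35 to 40% GC they were 14 of 107 (13.1%, interval 7.96 to 20.8%) against 397 of 8108 (4.90%, interval 4.45 to 5.39%), where the intervals did not overlap. In the other classes they overlapped, at 45 to 50% GC only between 13.2% and 14.1%. The part of base composition in the higher shares was not tested beyond these classes. Nor was the part of summits next to small RNA genes, which only the other regions hold.

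**Figure D4:**
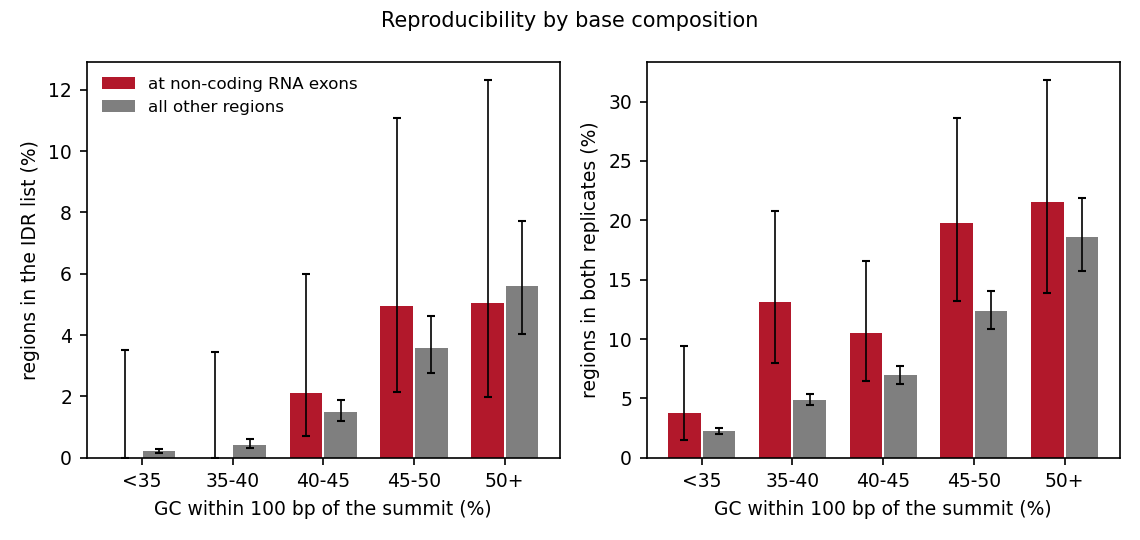
Share of regions, in percent, that were in the IDR list (left) and in both replicates (right), by GC content within 100 bp of the summit, for RNA gene regions (red) and all other regions (grey), with Wilson 95% intervals. Shares are highest from 45% GC up in both groups, and in the IDR panel the intervals of the groups overlap in each class.

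Chromosome X held 150 of the 535 regions (28.04%), against 17.1% of all pooled regions. It also holds 30.8% of the bases of these exons, so the share of regions was close to the share of bases. Of the RNA gene regions on X 18 (12.0%) were in both replicates, against 5.25% of other regions on X. On chromosome V they were 16 of 87 (18.4%) against 3.84%, and on chromosome I 12 of 69 (17.4%) against 4.90%. On chromosome IV they were 4 of 81 (4.94%, interval 1.94 to 12.0%) against 3.73%, close to the share of other regions.

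Short motifs at the summits were counted within 100 bp and, as a background from the same loci, in windows 500 to 700 bp to either side, on both strands. GAGAGA stood in 152 of 535 summit windows at RNA genes (28.4%, interval 24.8 to 32.4%) and in 11.1% of their flanking windows. Over all pooled regions it stood in 13.3% of summit windows and 10.5% of flanking ones. Among regions in both replicates the shares were 34.3% at RNA genes and 27.1% in all. Within 45 to 50% GC they were 46.5% (interval 37.1 to 56.2%) at RNA genes and 29.8% (interval 27.5 to 32.1%) at other regions; at 40 to 45% GC they were 24.5% and 19.4%, and at 50% or more 40.5% and 34.9%, with intervals that overlapped.

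The nuclear receptor half-site AGGTCA was counted without evidence here that it is the site of NHR-28. It stood in 5.98% of summit windows at RNA genes, 6.26% of their flanks and 5.11% of all pooled summit windows. Among regions found in both replicates it was in 9 of 70 (12.9%, interval 6.91 to 22.7%) at RNA genes and in 6.04% (interval 4.92 to 7.40%) of all. The flanks of these 70 held AGGTCA in 10 of 140 windows (7.14%, interval 3.93 to 12.6%), so the intervals overlapped. The longer AAGGTCA, which contains it, was in 1.87% of RNA gene summits and 1.57% of all. The B box GTTCNANNC was in 5.61% of RNA gene summits and 7.24% of all, and in 2 of the 12 RNA gene regions in the IDR list against 78 of all 238 IDR regions (32.8%). The rule leaves out summits within 500 bp of a tRNA gene, while the compared sets keep them. The B box shares thus do not compare like with like.

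Motifs rich in A and T were less frequent at these summits than in their flanks. TTTTTT stood in 51.2% of summit windows and 63.4% of flanking windows at RNA genes, against 68.1% and 64.4% over all pooled regions. TATAAA stood in 14.8% and 22.6% at RNA genes, against 21.3% and 21.1% over all regions. TTTCAG, the last bases of many nematode introns, stood in 17.0% and 32.7% at RNA genes, against 34.8% and 35.7% over all regions. At 40 to 45% GC, other regions also had lower shares at summits than in flanks. There TTTTTT stood in 50.3% and 65.7% at RNA genes, against 50.5% and 62.5% at other regions. TATAAA stood in 7.69% and 24.5%, against 10.8% and 19.6%, and TTTCAG in 16.8% and 32.2%, against 28.02% and 35.4%. Between the groups, the intervals of the summit shares overlapped for TTTTTT and TATAAA but not for TTTCAG. A motif match is a match of letters and does not show what binds there.

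**Figure D5:**
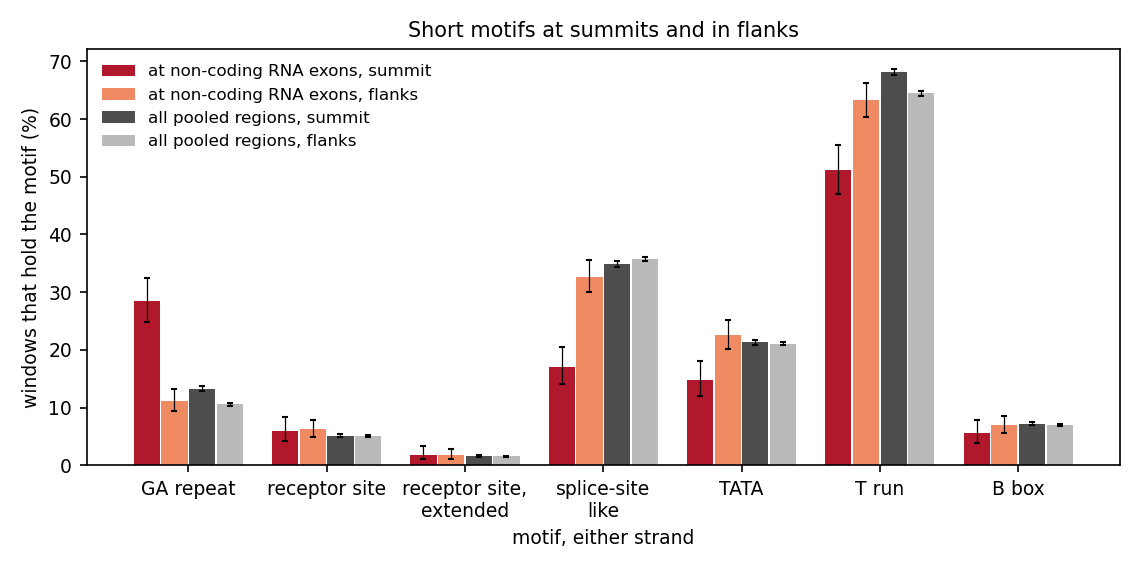
Share of windows, in percent, that hold each motif on either strand, at RNA gene summits (red) and their flanks (orange), and at all pooled summits (dark grey) and their flanks (light grey), with Wilson 95% intervals. The label GA repeat stands for GAGAGA, receptor site for AGGTCA, its extended form for AAGGTCA, splice-site like for TTTCAG and T run for TTTTTT, and the TATA motif and the B box are as given in the text. GAGAGA is in 28.4% of RNA gene summit windows and 11.1% of their flanks.

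The signals of both replicates were compared across regions. Across the 70 regions found in both, replicates 1 and 2 gave r = 0.676 and rho = 0.489, and without the 2 farthest from the median in replicate 1, r = 0.642. Without the 12 in the IDR list the 58 others gave r = 0.145 and rho = 0.154. Over all 1423 regions found in both replicates r was 0.778, and over the 1195 of them outside the IDR list 0.267. The IDR step keeps high regions that rank alike, so r falls by construction when they are left out. These values describe points that share 2 libraries, and selection for presence in both lists narrows their range. By the authors' q-values 27 of the 535 summits (5.05%) lay in a replicate 1 region at 0.05 or below, against 1.14% of all pooled summits. In such a replicate 2 region lay 10 (1.87%, interval 1.02 to 3.41%) against 0.777%, and in both 9 (1.68%) against 0.547%.

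Some genes held several regions. In 19 genes there was more than 1, and 13 regions overlapped the next. The most were in C30E1.9, an ncRNA gene of 14770 bp on chromosome X, with 8 regions of pooled signal 13.0 to 34.3. Its 2 regions found in both replicates lay 1626 and 14703 bp from the gene's 5' end. The stronger, at 34.3, had 18.6 in replicate 1 and 17.3 in replicate 2, and the other, at 27.2, had 15.2 and 15.3. The 2 thus stood near opposite ends of the gene with weaker regions beside and between them, none of which was found in both replicates. Repeated sequence was less frequent than elsewhere: 31 of the 535 (5.79%) had any 32-letter word near the summit that occurs again in the genome, against 11.0% of all pooled regions.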

How the data were processed

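The authors deposited narrowPeak lists on ce11 and ce10; only ce11 was used. Signal in them is the authors' value against a control, and the q-values of the replicate lists are deposited as −log10. Per the text records deposited with the libraries, the lists derive from alignments and a control; the sources used here name no aligner, peak caller or IDR cutoff. Of the pooled regions, 29988 are 324 bp wide. The pooled and IDR lists belong to the whole series, and no column in them names a sample. Each replicate's list was matched to its library.

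Genes came from Ensembl release 115 and sequence from the RefSeq copy of WBcel235, the same build as ce11. The assignment of summits was tested against a second tool on the same intervals. Summits, distances, GC content, motifs and repeated 32-letter words were computed with Python 3.11.15, pandas 2.3.3, numpy 2.4.6 and scipy 1.17.1, and identity with Biopython 1.88. Shares are described with Wilson 95% intervals and no test, since there is 1 group. Named genes are all regions in the IDR list, the next by pooled signal found in both replicates up to 25, and public-named RNAs with a region in both, 27 in all. Regions, lists and motifs were chosen with earlier results of these data known.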

Additional observations from a re-analysis of the deposited data

How the results depend on the processing

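With the 5000 strongest pooled regions alone, 163 regions remained at these RNA genes. Of them 7.362% were in the IDR list, against 4.76% of all 5000, and the ratio was thus smaller than over the whole list. In both replicates were 41.72% against 27.1%, within 1000 bp of a protein-coding 5' end 52.76% against 51.9%, and 33.13% against 21.9% held GAGAGA. The median signal was 28.18 at the RNA genes against 26.1. The rule applied to 1 replicate's list gave 120 to 343 regions, which were 2.63% of the replicate 2 list and 2.33% of the replicate 1 list. In a region of the replicate that was kept lay 21.5 to 48.79% of the 535 summits, against 13.4 to 35.3% of all pooled summits. Between 40 and 50% GC, an alternative chosen after seeing the data, there were 244 regions and GAGAGA stood in 33.61%. The correlation between replicates was 0.1455 without the regions in the IDR list. Of 61 alternative values 48 stayed within the interval or limit set for the value, and 13 moved. No paired analysis was possible because there is 1 group and no test. The scale of signal differs between lists, so no median without 1 replicate was set beside the pooled one. Read depth is unknown, and with 12 regions in the IDR list the shares there have wide intervals.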
